A study of Mus musculus with 32 samples.

Results

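Solitary Zfp genes are, in this report, zinc finger genes of the mouse with few other Zfp genes close by. They were taken as RefSeq protein-coding genes on the 19 autosomes of GRCm38 whose symbol starts with Zfp and that had fewer than 2 other Zfp genes starting within 200 kb of their own start. The rule gave 200 of 391 autosomal Zfp genes, out of 20665 autosomal protein-coding genes. Of the 200 genes, 150 had no other Zfp gene in that window and 50 had 1. Just outside the limit lay 36 genes with 2 such neighbours, and another 155 Zfp genes had 3 or more. The rule counts only genes named Zfp. With Zscan, Zkscan, Zbtb and Znf genes and Zfp pseudogenes also counted, 141 of the 200 had no neighbour and 10 had 2 or more. Members can still lie in a looser array, as Zfp968, Zfp965, Zfp966, Zfp967, Zfp973 and Zfp970 do between chr2:175372034 and chr2:177479194. The choice used position and name only, and no measured value.

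H3K9me3, the trimethylated form of lysine 9 on histone H3 that marks silent chromatin, was mapped by chromatin immunoprecipitation and sequencing in male germ cells from testes of Mvh-Venus transgenic mice, in which a germ cell promoter drives a fluorescent protein. All groups carried that transgene. The animals were Morc1 (+/-), called het here, or Morc1 (-/-), called KO here, sampled before birth at the embryonic days E13.5 and E16.5 and after birth at the postnatal days P0 and P3. The controls therefore also carried 1 mutated Morc1 allele, and no wild-type group was used. Each of the 8 groups had 2 H3K9me3 samples and was represented by 1 list of peaks, so no value below has a replicate error and no difference could be tested. Peak lists hold no expression values, and the purity of the germ cells was not checked against marker genes.

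Most proteins of this name carry C2H2 zinc fingers, small folds held by a zinc ion that read DNA bases. Many are KRAB zinc finger proteins, which bind retroelements and recruit Trim28 and the methyltransferase Setdb1 to deposit H3K9me3. Zinc finger genes are themselves known targets of the mark, mainly over the exon near the 3′ end that encodes the finger array. Male germ cells rebuild much of their DNA methylation between the stages sampled here. Morc1 is a nuclear ATPase of germ cells that is needed for retrotransposon silencing at that time. The name Zfp also covers developmental regulators without a KRAB domain and CCCH proteins that bind RNA.

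A peak at the start of the gene was uncommon. In at least 1 list 23 of 158 genes with a known strand had a peak within 1 kb of their start. The others had none in any list, as did 83.5% of all 16457 genes with a known strand. Zfp735, Zfp616 and Zfp791 had one in all 8 lists (2.79% of all genes), and Zfp958 had its start covered at P0 in het and not in KO. The 250 bases before these starts are shown for these 4 genes as examples, the first 3 because the mark was there at every stage and Zfp958 because the genotypes differed there. CG pairs are the main sites of DNA methylation in the mouse. They are from RefSeq's GRCm38.p6 promoter table, 5′ to 3′ on the strand of the gene, with every CG in capitals.
Zfp735: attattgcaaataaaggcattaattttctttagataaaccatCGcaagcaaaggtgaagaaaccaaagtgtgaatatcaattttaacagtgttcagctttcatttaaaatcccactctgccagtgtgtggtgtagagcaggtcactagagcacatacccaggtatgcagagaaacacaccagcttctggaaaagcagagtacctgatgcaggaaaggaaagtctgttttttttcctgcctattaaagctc
Zfp616: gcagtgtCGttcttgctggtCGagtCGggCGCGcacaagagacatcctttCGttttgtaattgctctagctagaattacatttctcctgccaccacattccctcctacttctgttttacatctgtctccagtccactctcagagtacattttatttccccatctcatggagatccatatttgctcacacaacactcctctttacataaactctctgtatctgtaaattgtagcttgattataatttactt
Zfp791: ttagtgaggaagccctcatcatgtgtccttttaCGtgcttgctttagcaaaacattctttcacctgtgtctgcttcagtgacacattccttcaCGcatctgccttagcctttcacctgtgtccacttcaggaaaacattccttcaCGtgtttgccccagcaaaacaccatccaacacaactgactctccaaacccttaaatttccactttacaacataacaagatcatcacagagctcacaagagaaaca
Zfp958: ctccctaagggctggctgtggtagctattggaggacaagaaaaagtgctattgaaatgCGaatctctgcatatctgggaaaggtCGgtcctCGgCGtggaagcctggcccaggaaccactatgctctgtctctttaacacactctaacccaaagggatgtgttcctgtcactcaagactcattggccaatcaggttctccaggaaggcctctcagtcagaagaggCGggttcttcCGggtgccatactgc

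These sequences lie at chr11:73688528-73688777 (plus strand, Zfp735), chr11:74060647-74060896 (plus strand, Zfp616), chr8:85123096-85123345 (minus strand, Zfp791) and chr8:4612920-4613169 (plus strand, Zfp958). They hold 1, 6, 3 and 6 CG pairs. Of the 200 genes, 158 had a promoter in the table, and their median was 13 CG pairs in 250 bases, against 10 over 16457 genes with an entry. A low CG number did not mark the covered starts in general. The 23 genes with a peak at the start in any list and the genes without one both had a median of 13, and 10 or more were present in 14 of the 23 and in 84 of the others.

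Peaks were common in these genes, but many carried none. A peak in the gene body in at least 1 list was found for 125 genes (62.5%, against 56.1% of all genes). The remaining 75 genes had no covered base of the gene body in any list, and 35 were covered in all 8 lists (17.5%, against 19.9% of all genes). Uncovered refers to the gene body here and below. With 5 kb added on each side, Zfp33b, Zfp345 and Zfp639 of the 75 had covered length in all 8 lists. The 75 uncovered genes had a median length of 14.1 kb and the 35 genes covered throughout one of 66.2 kb. Gene length therefore has to be kept in view for every count below. The 200 genes had a median length of 19.6 kb, from 2.29 kb for Zfp593 to 575 kb for Zfp804b, and 143 were under 30 kb, 35 were 30 to 100 kb and 22 were 100 kb or longer. These length classes were set after the data had been seen.

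The share of solitary Zfp genes with a peak was lowest at E16.5 and highest at P3 in het. From E13.5 to P3 the het share was 36.5%, 30%, 35.5% and 45.5%, and the KO share 43%, 29%, 34.5% and 42%. The exact binomial 95% interval was 29.8% to 43.6% for the first het share and 38.5% to 52.7% for the last. These intervals treat genes as independent draws and cover counting error only. Over all genes the het shares were 30.7%, 33.0%, 35.0% and 39.0%, and the KO shares 34.2%, 32.1%, 40.1% and 41.7%. In het the E16.5 share was below that at E13.5 in the solitary Zfp genes and above it over all genes. Clustered Zfp genes also had a lower share at E16.5 in het, 36.6% against 42.9% at E13.5, so the course was not particular to solitary genes.

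By length, the share of the summed gene bodies in peaks was 3.43%, 4.88%, 5.25% and 6.11% in het over the 4 stages. The KO values were 4.12%, 4.75%, 5.63% and 6.45%. Clustered Zfp genes were covered more at each stage, with 6.37% to 7.22% in het and 6.3996% to 7.31% in KO. All autosomal genes had 3.41%, 5.68%, 6.12% and 6.61% in het and 3.99%, 5.20%, 7.32% and 7.87% in KO. The sum is weighted by the longest genes, and the length classes differed in their relation to all genes. Among genes under 30 kb, solitary Zfp genes had 6.66% covered at E13.5 in het against 3.44% for all short genes, and 8.46% against 5.22% at P3. Clustered Zfp genes of that length had more, 7.40% and 8.62% in the same lists. In the P0 KO list the short solitary genes, at 5.38%, were close to the 5.35% of all short genes. The solitary genes of 30 to 100 kb were covered less than all genes of that length in every list. They had 1.38% against 4.45% in the E16.5 het list and 2.07% against 6.05% in the P0 KO list. Clustered Zfp genes of that length had 10.1% and 9.53%. Solitary genes of 100 kb or more were also below all genes of that length in every list, with 5.49% against 6.55% at E16.5 in het.

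**Figure D1:**
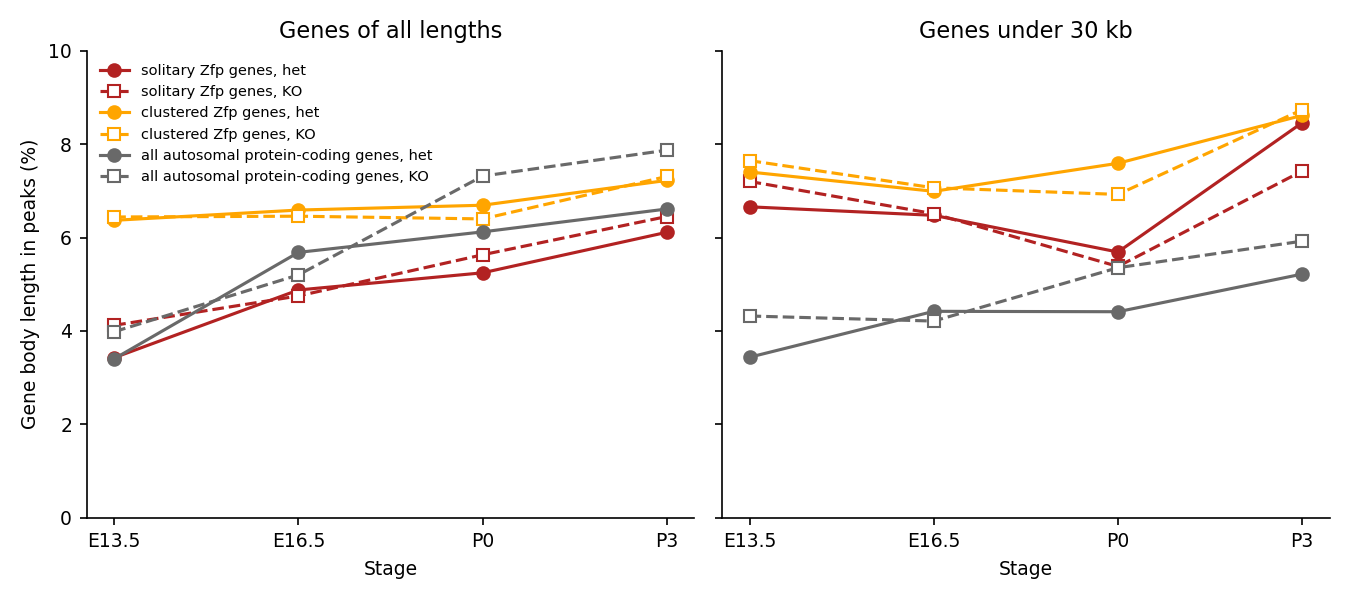
Percent of summed gene body length in H3K9me3 peaks (y axis) by stage (x axis), for genes of all lengths (left) and under 30 kb (right); filled circles and solid lines are het, open squares and dashed lines KO, with 1 list per point and no error bar. In the short genes the red line of solitary Zfp genes lies above that of all genes at every stage in het, and its KO point lies below its het point at P0 and P3, whereas for all genes KO lies above het at both. Clustered Zfp genes under 30 kb also have KO below het at P0, and slightly above it at P3.

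Within short solitary Zfp genes the covered length lay toward the end of the gene. In the 120 genes under 30 kb with a known strand, the mean covered share in the E16.5 het list was 1.58% in the first of 10 equal parts of the gene body and 11.5% in the eighth. In the P3 het list the lowest mean was 1.92%, in the first part, and the highest was 12.6%, in the ninth. All short genes showed a much flatter course in the E16.5 het list, from 6.04% in the first part to 7.70% in the last. In the P3 het list they went from 5.39% to 8.62%. Clustered Zfp genes under 30 kb had a course like that of the solitary ones. It ran from 1.83% in the first part to 11.7% in the last in the E16.5 het list. A peak within 1 kb of the gene end was present in any list for 33 of 158 genes (21.9% of all genes), and in all 8 lists (4.31% of all genes) for Zfp938, Zfp735, Zfp616, Zfp386, Zfp160 and Zfp606. The table gives no exons, so the finger exon itself was not located.

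**Figure D2:**
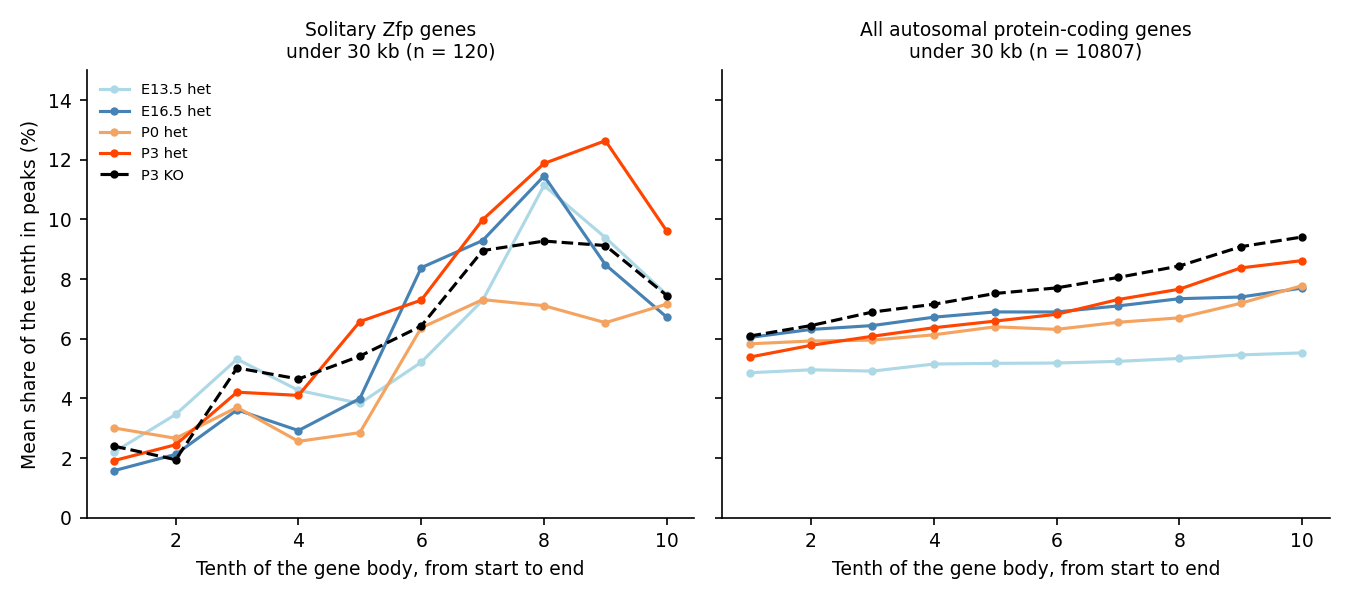
Mean share of each of 10 equal parts of the gene body that lay in peaks (y axis, percent), from the gene start (1) to the gene end (10) on the x axis, for 120 solitary Zfp genes (left) and 10807 genes (right) under 30 kb; lines are 5 of the lists. Coverage of the Zfp genes is low over the first parts and highest in parts 7 to 9. The lines for all genes rise more gradually, in P3 het from 5.39% to 8.62%.

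Zfp735, Zfp616 and Zfp160 were among the short genes with the most covered length, and of the 200 genes only Zfp735 had over 50% of its body in peaks in all 8 lists. Zfp735 (chr11:73688778-73713808, 25.03 kb) had 18.6, 18.1, 16.7 and 16.9 kb covered in het from E13.5 to P3, and 19.1, 18.6, 18.2 and 18.1 kb in KO. Its KO value was the higher one at each stage, by 1.42 kb at P0 and 1.21 kb at P3. The coverage came from 2 peaks, one over the start and one of 26.9 to 27.4 kb that ran from the middle of the gene past its end. Zfp616 starts 372 kb further along the same chromosome (chr11:74060897-74087301, 26.4 kb). It had 5.72, 13.6, 16.0 and 11.3 kb in het and 9.33, 16.98, 16.48 and 14.8 kb in KO, again higher in KO at each stage. Zfp160 kept 7.65 to 10.9 kb of its 19.9 kb covered in all 8 lists, and het and KO differed there by less than 1 kb at every stage.

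Zfp938 and Zfp706 were covered most at the earliest stage. Zfp938 (16.4 kb) had 14.6, 11.3, 7.80 and 7.67 kb in het and 14.5, 9.39, 9.04 and 8.04 kb in KO. A peak of 25.9 kb at E13.5 in het was followed by peaks of 18.6 to 18.8 kb that still covered the gene end. Zfp706 (10.4 kb) had 8.23, 6.68, 2.34 and 4.35 kb in het and 8.74, 7.45, 2.05 and 6.83 kb in KO, with the lowest values of both genotypes at P0. Both courses were shared by het and KO.

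Several genes were called only in part of the period. In 9 genes a peak was present in the gene body at E13.5 in both genotypes and in no later list (1.85% of all genes). They were Zfp131, Zfp281, Zfp318, Zfp467, Zfp518a, Zfp541, Zfp707, Zfp934 and Zfp936. Zfp281, a factor of pluripotent cells, had 2.15 kb (het) and 2.85 kb (KO) of its 5.49 kb covered at that stage, with 0 in the other 6 lists. Zfp541, a meiotic gene of spermatocytes, had 0.571 and 0.534 kb at E13.5 and 0 afterwards. Zfp318, a gene with high expression in testis, had 2.07 and 1.90 kb and then 0 in the gene body. These names were picked out after their values were seen. Some of the 9 genes had later peaks just outside the gene body. With 5 kb added on each side, Zfp318 had 1.44 and 0.462 kb at E16.5 and 0.5 and 1.56 kb at P3 in het and KO. Zfp131 then had 4.25 and 1.00 kb at P3, and Zfp707 had 0.964 kb at P3 in KO. Zfp281, Zfp518a and Zfp934 stayed at 0 after E13.5.

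Another set had no peak in the gene body at birth. Zfp386, Zfp488, Zfp62, Zfp637 and Zfp661 were called at E16.5 in both genotypes and in neither at P0 (2.06% of all genes), and Zfp386 and Zfp62 were called again in both at P3. Zfp386 had 4.81, 4.68, 0 and 2.85 kb in het and 3.99, 4.68, 0 and 0.385 kb in KO. The region around it was not empty at P0, since with 5 kb added on each side Zfp386 had 4.38 kb in het and 2.45 kb in KO. The same held for others of this set. With the flanks at P0, Zfp62 had 1.20 and 1.63 kb and Zfp661 had 2.10 and 2.64 kb in het and KO. Zfp488 then had 1.00 kb in KO and 0 in het. In the opposite direction, 7 genes were called in all 4 postnatal lists and in no embryonic list (2.80% of all genes), namely Zfp11, Zfp326, Zfp346, Zfp507, Zfp598, Zfp654 and Zfp821. A further 5 were called only at P3, in both genotypes (1.94% of all genes), namely Zfp113, Zfp384, Zfp574, Zfp648 and Zfp692. Some had earlier peaks just outside the gene body. With 5 kb added on each side, Zfp346 had 2.37 and 2.11 kb at E13.5 and 4.07 and 4.185 kb at E16.5 in het and KO. Zfp654 then had 1.00 kb at E16.5 in het. Zfp648 had 2.31 and 1.53 kb at E16.5 and 2.46 and 2.10 kb at P0. In the E13.5 KO list alone, 6 genes had a peak (2.21% of all genes), namely Zfp248, Zfp39, Zfp503, Zfp512, Zfp523 and Zfp703. Whether such a single call reflects depth or the calling threshold was not tested.

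Counted by a change of at least 1 kb between neighbouring stages in het, 32 genes were covered more and 30 less at E16.5 than at E13.5 (16% and 15%, against 19.5% and 7.51% of all genes). From E16.5 to P0, 34 were covered more and 25 less (against 15.5% and 10.5% of all genes). From P0 to P3, 55 were covered more and 17 less (27.5% and 8.5%, against 18.4% and 9.23%). In KO the numbers covered more and less were 27 and 40, 41 and 16, and 43 and 20 over the same steps (all genes: 15.7% and 11.9%, 25.0% and 5.03%, 18.3% and 10.7%). The largest gain in het was that of Zfp804b, from 41.9 to 125 kb between the embryonic stages, and Zfp804a went from 1.00 to 23.0 kb over the same step. Zfp951 had the largest loss at that step, from 13.4 to 3.36 kb.

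Against KO, the solitary Zfp genes as a whole had more covered length in KO at 3 of the 4 stages. Over the 4 stages the het lists covered 318, 452, 486 and 566 kb of these genes, and the KO lists 382, 440, 521 and 597 kb. Het minus KO was thus -64.1, 11.8, -35.8 and -31.3 kb. The ratio of KO to het was 1.20, 0.974, 1.07 and 1.06, beside 1.17, 0.915, 1.20 and 1.19 for all genes. The E16.5 value rests largely on Zfp804b and was 2.89 kb without it. The P3 value was -17.7 kb without Zfp277.

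Counted by gene, KO was also the higher genotype more often at P0, while het and KO were close at P3. Counting any difference, 25 genes were higher in het and 54 in KO at P0, and 48 in each at P3. With equal numbers of peaks at a stage, 29 genes were at least 1 kb higher in each genotype at P3. With 5 kb flanks the P3 numbers were 37 in het and 36 in KO. The limit of 1 kb used next is near the shortest peak length, 1001 bp in each list but P3 KO. A single such peak called in 1 genotype alone passes it. At least 1 kb more was covered in het for 13, 12, 18 and 28 genes from E13.5 to P3. These are 6.5%, 6%, 9% and 14% of the 200, and over all genes the shares were 3.98%, 8.84%, 3.90% and 5.68%. At least 1 kb more was covered in KO for 37, 9, 34 and 33 genes (of the 200, against 13.9%, 3.29%, 20.2% and 19.4%). The share higher in het at P0 and P3 was thus above that of all genes, and the share higher in KO was slightly below it. Of clustered Zfp genes, 9.42% and 12.0% were at least 1 kb higher in het at P0 and P3, and 7.33% and 13.6% in KO.

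Split by length, the sums after birth were higher in KO for the long genes and higher in het for the shorter ones, and at P0 the latter rested on few genes. For the 143 genes under 30 kb, het minus KO was -12.1 and -0.772 kb at the embryonic stages and 6.90 and 23.1 kb at P0 and P3. Their KO to het ratio was 0.946 at P0 and 0.878 at P3, whereas all genes under 30 kb had 1.21 and 1.14. Clustered Zfp genes under 30 kb had 0.912 and 1.01, so the P0 direction was not particular to solitary genes. At P3, 20 of the 143 had at least 1 kb more in het and 14 at least 1 kb more in KO, where 3.32% and 6.63% of all short genes did. At P0 the counts were 10 and 12 (1.81% and 6.89% of all short genes). The 35 genes of 30 to 100 kb had ratios of 0.807 at P0 and 0.746 at P3, beside 1.24 and 1.20 for all genes of that length. Clustered Zfp genes of that length had 1.04 and 1.01. Of the 35, at least 1 kb more was covered in het for 5 at P0 and 8 at P3 (6.49% and 9.61% of all genes of that length), and in KO for 5 at each stage (33.5% and 32.0%). Without Zfp950 alone the het minus KO sum of these 35 genes turned from 9.51 to -0.284 kb at P0 and fell from 20.6 to 12.5 kb at P3, and without Zfp654 alone the P0 sum was 5.78 kb. Counting any difference at P0, 11 of the 35 were higher in KO and 5 in het, and of the 143 shorter genes 25 were higher in KO and 17 in het. At P3 the numbers were 9 in KO and 10 in het, and 22 in KO and 34 in het. The 22 genes of 100 kb or more had 1.17 and 1.25, beside 1.1796 and 1.20 for all long genes. Of these 22, 17 and 14 were at least 1 kb higher in KO (69.6% and 66.7% of all long genes) and 3 and 0 at least 1 kb higher in het (10.6% and 11.1%).

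The short-gene sum at P0 is small and rests on few genes: leaving out Zfp605 alone gave 2.70 kb, and with a length limit of 20 kb in place of 30 kb it was -0.664 kb. Counting only the 150 genes with no other Zfp gene within 200 kb, the P0 and P3 sums of the short genes were 2.70 and 3.56 kb.

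**Figure D3:**
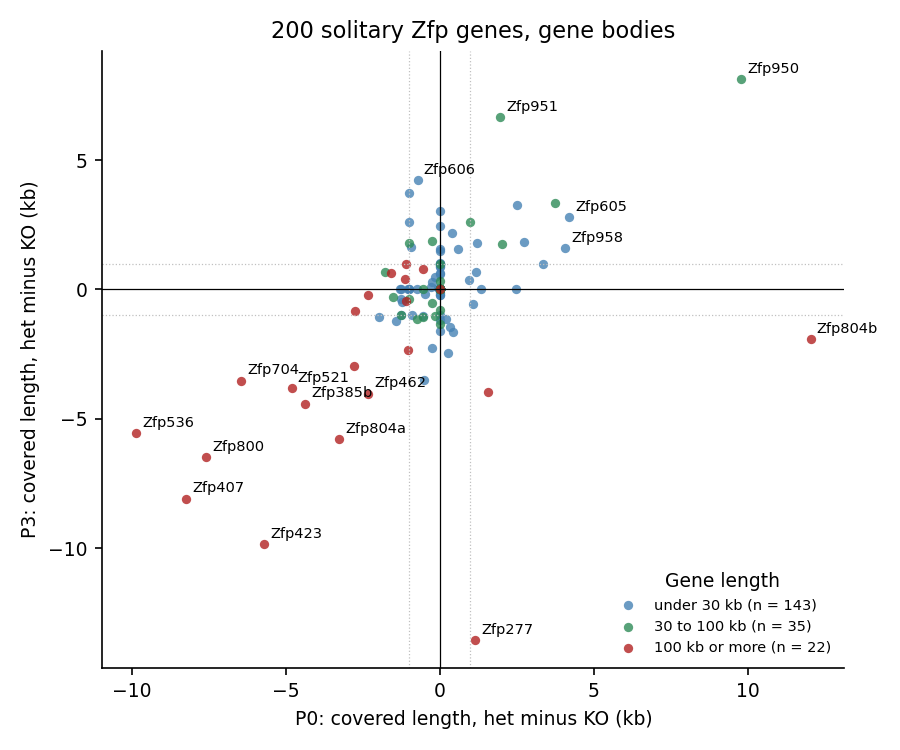
Covered length of the gene body, het minus KO in kb, at P0 (x axis) and P3 (y axis) for the 200 solitary Zfp genes, 1 point per gene coloured by gene length; dotted lines mark 1 kb, and genes that differ by 4 kb or more at either stage are named. Points of genes under 100 kb reach into the upper right, with Zfp950 farthest out, and the genes of 100 kb or more lie mainly in the lower left.

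At least 1 kb more in het at both P0 and P3 was found for 11 genes (5.5%, against 3.66% of clustered Zfp genes and 1.80% of all genes). They are Zfp169, Zfp352, Zfp605, Zfp654, Zfp68, Zfp697, Zfp91, Zfp945, Zfp950, Zfp951 and Zfp958. Their median length was 29.2 kb, 6 were under 30 kb (0.728% of all short genes), 5 were 30 to 100 kb (3.13% of that class) and none reached 100 kb (5.23%). At least 1 kb more in KO at both stages was found for 15 genes (7.5%, against 11.9%). Of those, 11 were 100 kb or longer (55.2% of all long genes), 1 was 30 to 100 kb (17.8%) and 3 were under 30 kb (2.34%). In 6 genes the difference went in opposite directions at P0 and P3 (1.81% of all genes). A het peak and no KO peak in the gene body at both stages was found for 7 of the 200 genes (0.484% of all genes). They were Zfp322a, Zfp352, Zfp369, Zfp697, Zfp91, Zfp930 and Zfp958. The reverse held for Zfp592 and Zfp641 (1.33% of all genes). With 5 kb added on each side, Zfp697 had 2.66 and 3.19 kb in KO at P0 and P3. Zfp322a then had 1.87 kb in KO at P0, and Zfp641 1.14 kb in het at P0. Some differences were no larger than 1 shortest peak. Zfp169 at P0 and Zfp352 at P3 had 1.001 kb in het against 0 in KO, and Zfp641 at P3 had the reverse. Requiring a difference of 2 kb left 4 genes higher in het and 10 higher in KO at both stages.

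**Figure D4:**
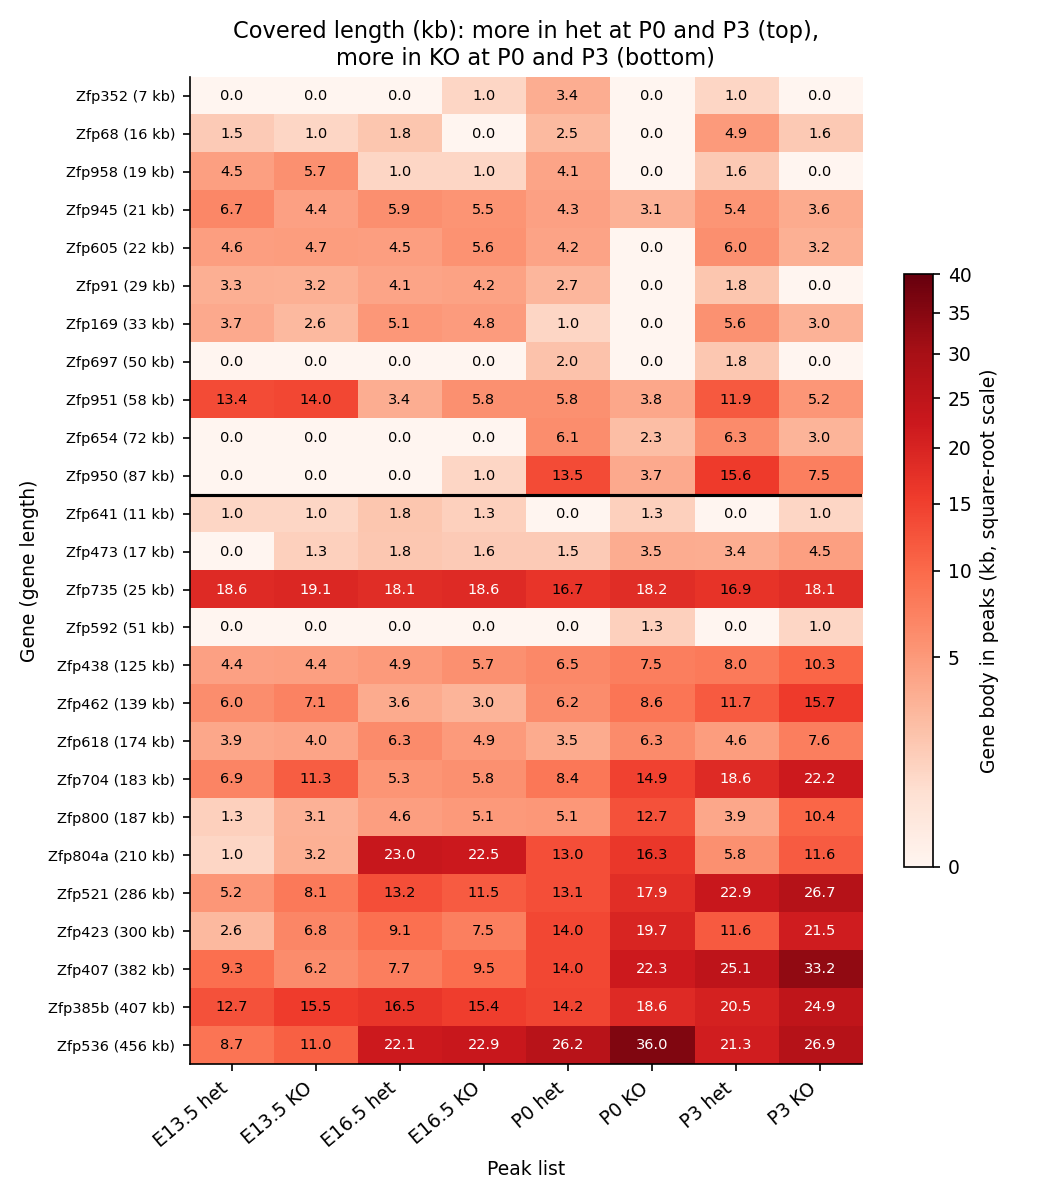
Covered length of the gene body in kb (number and colour, square-root colour scale) in each of the 8 peak lists (x axis) for the 11 genes with at least 1 kb more in het at P0 and P3 (above the line) and the 15 with at least 1 kb more in KO (below), each group ordered by gene length given after the name. The P0 KO column holds 0 for 7 of the 11 upper genes, and most of the lower genes are long and covered in every list.

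Zfp605 shows the difference as the absence of a peak that was present before birth. This gene (chr5:110110028-110131536, plus strand, 21.5 kb) had 4.57, 4.52, 4.20 and 5.96 kb covered in het and 4.70, 5.60, 0 and 3.17 kb in KO. A peak over its 3′ end was called in all 4 embryonic lists and lay at chr5:110127338-110134235 in the P0 het list and at chr5:110126837-110133887 in the P3 het list. No peak was called there in the P0 KO list. At P3 in KO a peak of 1.61 kb (chr5:110127302-110128906) lay within the 7.05 kb of the het peak and stopped before the gene end. The window of 1 kb on each side of the gene end thus held 0 covered bases in KO at P0 and P3, and was fully covered in every other list.

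Zfp91, which encodes a ubiquitin ligase (chr19:12766939-12796123, minus strand, 29.2 kb), had 3.27, 4.07, 2.74 and 1.84 kb in het and 3.21, 4.23, 0 and 0 kb in KO. The embryonic values were alike in both genotypes, and both postnatal KO lists lacked the peak. Zfp958 (chr8:4613170-4632572, plus strand, 19.4 kb) had 4.46, 1.00, 4.08 and 1.61 kb in het and 5.74, 1.00, 0 and 0 kb in KO. At P0 in het a peak of 25.8 kb (chr8:4591399-4617245) ran from upstream over the start of Zfp958, whose promoter is printed above. A peak of 2.84 to 2.98 kb just past the gene end was called in KO at P0 and P3, and peaks of similar length were called there in het.

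Zfp950, Zfp654 and Zfp697 had no embryonic het peak in the gene body. Zfp950 (chr19:61053840-61140844, minus strand, 87.0 kb) had 0, 0, 13.49 and 15.6 kb in het and 0, 1.00, 3.70 and 7.495 kb in KO. A peak of 6.64 kb at P0 (chr19:61098083-61104725) and 7.03 kb at P3 in het was missing at P0 in KO and 1.62 kb long at P3. The peak 74.9 kb from the gene start, by contrast, was called at P0 in both, at 2.47 kb (het) and 2.18 kb (KO). Zfp654 had 0 in all embryonic lists, then 6.07 and 6.32 kb in het and 2.34 and 2.98 kb in KO. Its peak at chr16:64802740-64806157 was called at P0 in het, with a counterpart at P3 in het and in neither KO list. Zfp697 had 2.03 and 1.78 kb in het at P0 and P3 and 0 in the other 6 lists.

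**Figure D5:**
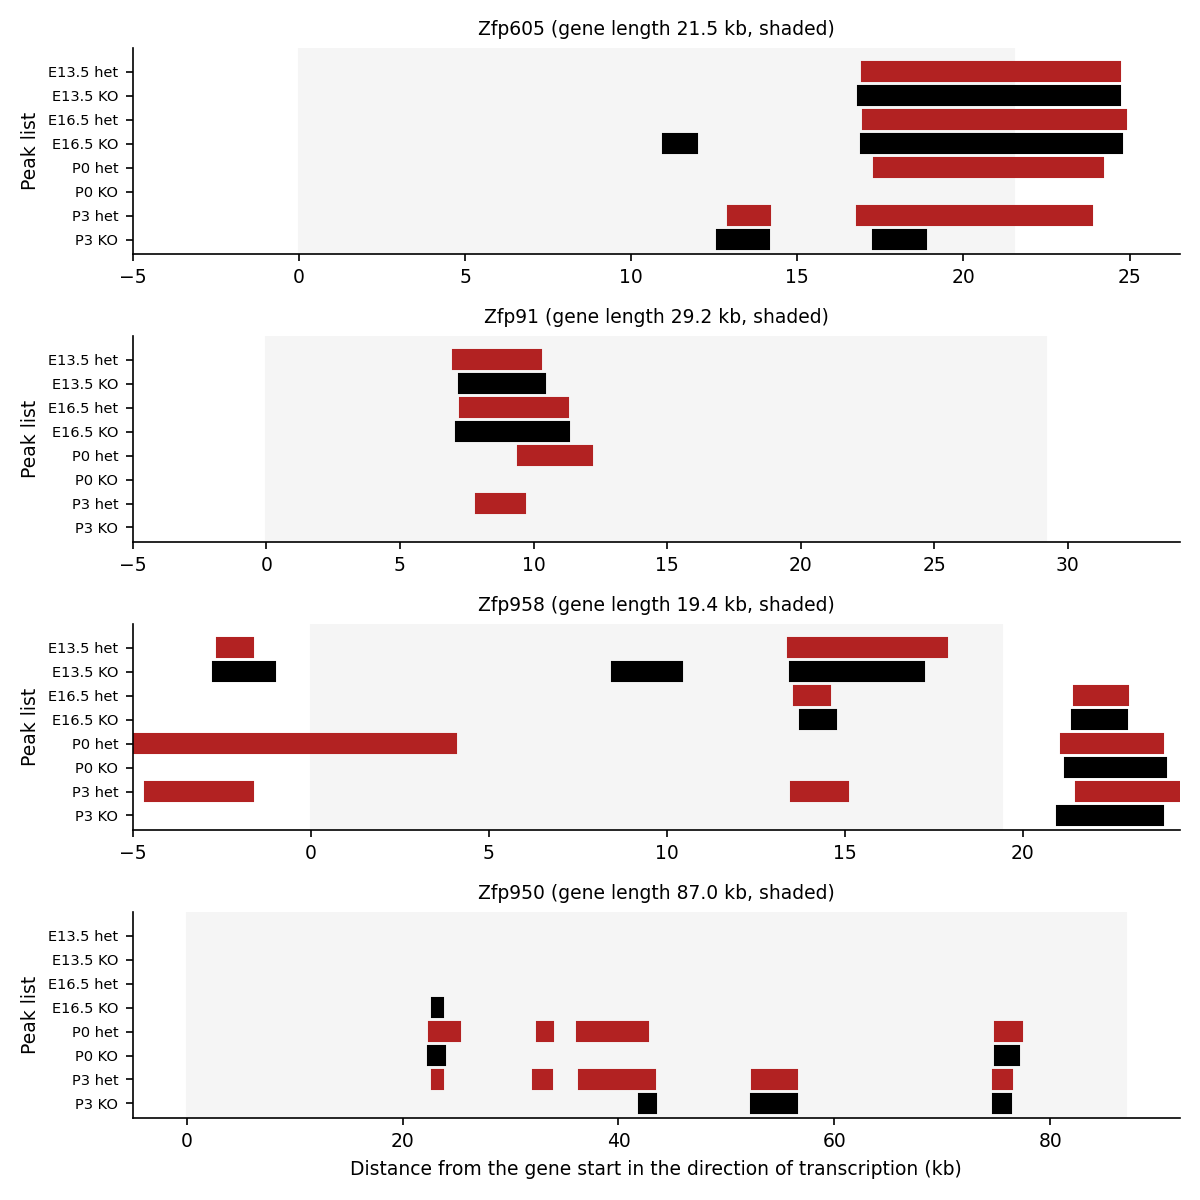
Peaks (bars) around Zfp605, Zfp91, Zfp958 and Zfp950 in the 8 lists (rows; red het, black KO), drawn by distance from the gene start in kb in the direction of transcription (x axis), with the gene shaded and 5 kb shown on each side; the 25.8 kb P0 het peak at Zfp958 continues beyond the left edge. The end of Zfp605 is covered in the 4 embryonic rows and in P0 and P3 het, and is not covered in P0 KO and P3 KO.

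Of the other genes of this group, Zfp945 and Zfp951 kept a peak in every KO list, while Zfp68, Zfp169 and Zfp352 had none in the gene body at P0 in KO. Zfp945 (20.6 kb) had 6.69, 5.89, 4.34 and 5.38 kb in het and 4.38, 5.49, 3.14 and 3.602 kb in KO. Zfp68 had 1.55, 1.83, 2.51 and 4.88 kb in het and 1.00, 0, 0 and 1.61 kb in KO. With Zfp169 (3.69, 5.11, 1.00 and 5.64 kb against 2.61, 4.79, 0 and 3.02 kb), these were the 3 genes of the 200 that were higher in het at all 4 stages (0.629% of all genes). Zfp352, a gene known from the 2-cell embryo, had 3.37 and 1.00 kb in het at P0 and P3, 0 in KO at both, and 1.00 kb in the E16.5 KO list. Zfp951 had 5.80 and 11.9 kb in het at P0 and P3 and 3.84 and 5.20 kb in KO. Its promoter is 90.7% identical to that of Zfp33b, so reads there may not be assigned to 1 copy.

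The 15 genes higher in KO at both postnatal stages included several regulators of development. Zfp536, a repressor of neuronal differentiation (456 kb), had 8.67, 22.1, 26.2 and 21.3 kb in het and 10.96, 22.9, 36.0 and 26.9 kb in KO. Zfp423, a partner of Ebf factors in neurons and fat cells (300 kb), had 2.63, 9.09, 13.98 and 11.6 kb in het and 6.78, 7.46, 19.7 and 21.5 kb in KO. Zfp800 (187 kb) had 1.27, 4.61, 5.11 and 3.90 kb in het and 3.09, 5.05, 12.7 and 10.4 kb in KO. Zfp704, Zfp407, Zfp521, Zfp385b, Zfp462, Zfp618, Zfp438 and Zfp804a were the other long ones. Zfp592 stands apart as a gene with 0 in all embryonic and both postnatal het lists and 1.26 and 1.00 kb in KO at P0 and P3. More in KO at all 4 stages was found for 7 of the 200 genes (3.05% of all genes), Zfp735, Zfp616, Zfp438, Zfp704, Zfp362, Zfp800 and Zfp536.

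Of the 22 genes of 100 kb or more, 3 were higher in het at P0 (Zfp804b, Zfpm2 and Zfp277) and 18 in KO. Zfp804b (575 kb), the longest gene of the set, had 41.9, 125, 135.2 and 99.0 kb in het and 52.0, 116, 123 and 101 kb in KO. It was higher in het at E16.5 by 8.93 kb and at P0 by 12.0 kb, and higher in KO at E13.5 and P3. Zfp277 had 8.26, 15.5, 19.9 and 11.1 kb in het and 14.1, 18.5, 18.7 and 24.7 kb in KO, and its P3 difference of -13.55 kb was the largest of any member in the KO direction.

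By role, the list of regulators of neural and other development was the largest of the Zfp lists. Of its 19 genes, 17 had a peak in at least 1 list and 12 in all 8 (56.1% and 19.9% of all genes), Zfp750 and Zfpm1 being the uncovered ones. At least 1 kb more was covered in KO for 11, 2, 10 and 12 of them from E13.5 to P3, and in het for 1, 5, 2 and 0. Over all genes the KO shares were 13.9%, 3.29%, 20.2% and 19.4% and the het shares 3.98%, 8.84%, 3.90% and 5.68%, and among all genes of 100 kb or more 69.6% and 66.7% were higher in KO at P0 and P3. The regulators' median difference, het minus KO, was -1.001, 0.201, -1.13 and -1.93 kb, where the median over all genes was 0 at each stage and that of all genes of 100 kb or more was -0.763, 0.532, -2.41 and -2.40 kb. Their E13.5 median of -1.001 kb equals the length of 1 shortest peak. Many of these regulators are long genes, so their list and the long-gene class overlap.

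Of 9 genes of pluripotency and the early embryo, 3 had a peak in some list, where 56.1% of all genes did. Zfp281, Zfp322a and Zfp462 were the covered ones, and Zfp143, Zfp207, Zfp217, Zfp296, Zfp42 and Zfp57 had none. Zfp42 (Rex1) is a marker of pluripotent cells, and Zfp57 guards DNA methylation at imprinted genes. Zfp322a had 0.409 kb at P0 and 2.19 kb at P3 in het and 0 in the other 6 lists. Of 4 germ cell genes, Zfp318, Zfp541 and Zfp37 had a peak and Zfp42 had none. Zfp57 and Zfp932, the 2 of 9 listed silencers of retroelements or imprints that are solitary, were uncovered in all 8 lists. So were Zfp36, Zfp36l1 and Zfp36l2, CCCH proteins that bind AU-rich messenger RNAs and promote their decay. The median difference of the early embryo, silencing and CCCH lists was 0 at each stage. This was fixed by the uncovered genes, since no silencing or CCCH gene and only 3 of 9 early embryo genes had a peak. These medians therefore cannot show whether the genotypes differ.

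For comparison, 28 genes of the H3K9me3 and germline silencing machinery were read in the same way. A peak in at least 1 list was found for 19 of them (56.1% of all genes) and in all 8 for 6 (19.9% of all genes). Trim28, the partner of KRAB zinc finger proteins, was uncovered throughout, and Setdb1 had 1.31, 0, 1.78 and 5.77 kb in het and 0, 0, 1.71 and 6.07 kb in KO. Morc1 itself had 2.002, 1.62, 3.47 and 3.21 kb in het and 1.56, 0, 0 and 1.00 kb in KO. The lists do not show which part of Morc1 is deleted, so these values do not check the genotype labels.

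The sequence around the genes changed the balance at P0. With 5 kb added on each side, het minus KO was -81.2, 20.2, -4.33 and -13.4 kb over the stages, and 29 genes had at least 1 kb more in het at P0 (14.5%, against 7.13% of all genes). In the flanks alone, 7.66% of the length was covered at P0 in het and 6.09% in KO. For all genes it was 7.58% and 8.01%, and for clustered Zfp genes 12.5% and 9.04%. For short solitary genes the sums with flanks were 31.1 kb at P0 and 38.2 kb at P3 in favour of het. In 9 genes the promoter was at least 90% identical to that of another Zfp gene (Zfp33b, Zfp600, Zfp951, Zfp965, Zfp966, Zfp967, Zfp968, Zfp970 and Zfp973). Of these 9, 8 had no covered base of the gene body in any list. Zfp33b, 1 of these 8, had 1.26 to 4.24 kb in each list with the flanks. How reads from near-identical copies were placed is not given in the sources used here, and its part in these values was not tested.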

How the data were processed

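The authors deposited 1 H3K9me3 peak list per stage and genotype, with chromosome, start and end of each peak on mm10 (GRCm38) and no height, count or p-value. These positions are the only values (another unit than a count or signal), per the file contents. The submitters' processing notes name bcl2fastq 2.20, cutadapt 1.18, Bowtie2 2.3.4.1, deepTools 3.5.0 and HOMER 4.10, with no role. The peak threshold, the use of the 16 H3 samples as control and the handling of the 2 replicates are not given in the sources used here, so read depth is unknown. Peak length and number depend on depth and threshold. The lists held 52628 to 93523 peaks that covered 166 to 340 Mb, and the median peak was 1.85 to 2.55 kb long. 7 mitochondrial peaks were left out.

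Gene bodies came from the RefSeq table of GRCm38, and the lowest coordinate served as gene start in the neighbour rule. Strand was known for the 158 genes with a RefSeq promoter, and the start and end windows were 1 kb on each side. Covered base pairs are the overlap of a gene body with the union of a list's peaks. The calculation was tested on simulated data, where 200 of 200 genes were recovered exactly. A difference counted from 1 kb. The shortest peak was 970 bp long in the P3 KO list and 1001 bp in each other list. A single 1001 bp peak called in only 1 genotype therefore counted as a difference. With 1 list per group no test was made. Shares have exact (Clopper-Pearson) 95% intervals.

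Named genes were the 10 with the largest mean covered length, up to 5 per direction and stage with the largest difference, up to 8 per direction that differed at both P0 and P3, up to 5 per direction that differed alike at all 4 stages, the 3 with the largest covered share of each list and up to 5 per step between stages. The members and lists were chosen with earlier results of these data known. Grouping by protein domain was not done, as no protein table was used here. Alternatives were 5 kb flanks, the longer 50% of peaks, equal peak numbers, other neighbour rules and other limits. Python 3.11.15, numpy 2.4.6, pandas 2.3.3 and scipy 1.17.1 were used.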

Additional observations from a re-analysis of the deposited data

Results flagged for a closer look

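The direction of the difference between het and KO was not the same at all stages. Summed over the 200 solitary Zfp genes, covered length het minus KO was -64.1, 11.8, -35.8 and -31.3 kb from E13.5 to P3, above 0 at E16.5 alone. All autosomal genes had the same signs, with -5803, 4834, -11974.5 and -12619 kb. The whole lists covered 166, 306, 325 and 287 Mb in het and 189, 283, 340 and 314 Mb in KO. With equal numbers of peaks at a stage the E16.5 sum of the solitary genes was -8.20 kb. In the 143 solitary genes under 30 kb the sum was -12.1, -0.772, 6.90 and 23.1 kb, below 0 before birth and above 0 after it. With 1 list per group the difference between stages was not tested.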

How the results depend on the processing

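No paired analysis was possible because each group is 1 peak list without replicate numbers, and for the same reason no replicate was left out. Read depth and threshold are unknown and limit every count. The cause of the changes below was not tested, apart from settings that by their construction use fewer peaks or genes or a wider region.

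Summed het minus KO (E13.5, E16.5, P0, P3) was -81.2, 20.2, -4.33 and -13.4 kb with 5 kb on each side, and -27.9, 3.16, -11.4 and -27.2 kb with the longer 50% of each list. With equal numbers of peaks at a stage it was -48.7, -8.20, -16.7 and -12.2 kb, so the E16.5 direction turned. With no other Zfp gene within 200 kb (150 genes) it was -67.6, 8.55, -39.0 and -52.6 kb, and with fewer than 2 within 500 kb (161 genes) -70.9, 10.1, -33.3 and -49.9 kb. Of 2 alternatives added after the data were seen, leaving out Zfp804b gave -54.1, 2.89, -47.8 and -29.3 kb, and leaving out the 9 genes with near-identical promoters gave -63.5, 14.2, -37.7 and -37.9 kb.

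The sums for genes under 30 kb at P0 and P3, also added later, were 31.1 and 38.2 kb with flanks, 2.98 and 14.3 kb with longer peaks, 11.9 and 25.1 kb with equal numbers, 2.70 and 3.56 kb with no other Zfp gene, and 9.31 and 4.43 kb with the 500 kb rule. A limit of 20 kb gave -0.664 and 21.6 kb, and one of 50 kb gave 6.60 and 27.3 kb. Leaving out 1 of 6 genes (Zfp352, Zfp605, Zfp68, Zfp72, Zfp91 or Zfp958) moved the P0 sum by over 1.5 times, down to 2.70 kb, and no single gene did so at P3.

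The sums for genes of 30 to 100 kb at P0 and P3, also added later, were 13.98 and 22.2 kb with flanks, 13.6 and 15.5 kb with longer peaks, 11.5 and 23.6 kb with equal numbers, 10.5 and 18.8 kb with no other Zfp gene, 7.55 and 13.985 kb without near-identical promoters, and -0.284 and 12.5 kb without Zfp950.

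The shares of genes with a peak (het then KO from E13.5 to P3) were 44%, 52%, 41%, 38.5%, 47%, 48.5%, 55% and 54% with flanks, and 22%, 24%, 18%, 18%, 17%, 17%, 27.5% and 24% with longer peaks. Genes at least 1 kb higher in het at P0 numbered 29 with flanks, and 17 were so at both P0 and P3. With longer peaks 7 were higher in het at E13.5, 6 in het at both P0 and P3, and 14 and 18 in KO at E13.5 and P0. The 500 kb rule left 18 higher in het at P3. A 500 bp difference gave, at E16.5, 19 genes higher in het and 17 higher in KO. A 2 kb difference gave 4, 1, 10 and 12 in het, 12, 3, 12 and 16 in KO, and 4 in het at both P0 and P3.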
